A study of Mus musculus with 12 samples.

Results

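The probe sets of the cytosolic ribosomal protein genes were examined in the main olfactory epithelium (MOE) of mice that lack the olfactory histone variant gene H2be. A probe set, the group of oligonucleotides that reports a transcript on the array, was taken as a member when all of its gene symbols in the platform annotation had the form of a cytosolic ribosomal protein name (Rps, Rpl or Rplp with a number). Kinases of ribosomal protein S6 and annotated pseudogenes were left out by this rule. It found 213 member probe sets with 61 gene symbols among 28944 experimental probe sets. All 213 passed the filter on low signal, for which the 12 arrays had to average more than 5 on the log2 scale, which left 28151 probe sets for testing.

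The arrays compared 6 samples from H2be-KO mice with 6 samples from WT mice, all at 6 months of age. In H2be-KO mice the coding sequence of H2be was replaced, through targeting in embryonic stem cells, by a membrane-tagged mCherry reporter that carries a Gap43 tag, and the line was crossed to C57Bl/6. Each array held RNA of whole MOE pooled from 2 animals, and the labels give no sex for any array. The design text of the series speaks of an equal mix of males and females, whereas a legend of the study names male H2be-KO mice for these data. All values are log2 signals, and a difference is the H2be-KO mean minus the WT mean on that scale.

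Each ribosome consists of a small subunit, which decodes the mRNA, and a large subunit, which joins amino acids and carries a flexible stalk that recruits translation factors. The ribosomal protein mRNAs are abundant in nearly all cells and begin with a C followed by a run of C and T, the 5′ terminal oligopyrimidine (TOP) tract, through which their translation follows mTORC1 signaling. The MOE renews its sensory neurons throughout life from basal progenitors, which make ribosomes as they divide and grow. In such bulk tissue, fewer cells of a type and less RNA per cell cannot be told apart.

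The start regions of 6 members are printed, of Rps3a1, Rps9 and Rplp0 because the results turn on them, and of Rps6, Rpl38 and Rps10 because they show the TOP tract typical of this gene group. They are RefSeq sequences on build GRCm38.p6, each with 30 bases before the annotated start and 20 from the start on, read 5′ to 3′ on the strand of the gene. Capitals mark a TOP tract (C followed by at least 4 C or T, with the C at most 10 bases from the start, gene strand) or the motif CCGGAAG on either strand. Rps3a1 lies at chr3:86142649-86142698 on the minus strand, Rps9 at chr7:3704011-3704060 on the plus strand and Rplp0 at chr5:115559437-115559486 on the plus strand. Rps6 lies at chr4:86857348-86857397 on the minus strand, Rpl38 at chr11:114668550-114668599 on the plus strand and Rps10 at chr17:27635225-27635274 on the minus strand.
Rps3a1: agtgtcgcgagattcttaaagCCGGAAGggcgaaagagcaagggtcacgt
Rps9: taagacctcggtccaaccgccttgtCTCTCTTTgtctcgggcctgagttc
Rplp0: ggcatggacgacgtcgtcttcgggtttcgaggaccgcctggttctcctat
Rps6: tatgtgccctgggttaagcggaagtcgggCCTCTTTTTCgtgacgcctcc
Rpl38: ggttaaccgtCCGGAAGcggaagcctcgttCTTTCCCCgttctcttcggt
Rps10: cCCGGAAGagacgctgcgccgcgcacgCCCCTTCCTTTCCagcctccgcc
In Rpl38 the tract began at the annotated start, in Rps6 it began 1 base before it, and in Rps3a1 and Rplp0 no tract began within 10 bases of the start.

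RefSeq promoters of 300 bases (250 before the start and 50 from it on) were matched for 48 of the 61 symbols, as 57 promoters. The base at the annotated start was a C followed by at least 4 C or T, whether or not the tract reached further upstream, in 10 of these 57 promoters (17.5%), compared with 2.51% of all 32851 promoters. A tract whose first C lay within 10 bases of the start was found in 30 of the 57 (52.6%), compared with 30.7% of all. The motif CCGGAAG, the core of sites bound by Ets family factors, was found in 19 of the 57 (33.3%) and in 8.86% of all promoters. GGGCGG was found in 56.1% and 35.7%, AAGATGG in 8.77% and 6.34%, and TATAA in 24.6% and 24.9%. Except for the TOP tract, motifs were sought on both strands over the whole promoter, and matches of different motifs may overlap. A match describes the sequence around the annotated start only. Where transcription of these genes begins in the MOE was not measured, so a missing match does not show that an mRNA lacks the tract.

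Very few ribosomal protein probe sets were called different between genotypes in the reported analysis. One probe set, for Rps9, rose in H2be-KO MOE and 1 probe set, for Rps3a1, fell, by limma at an unadjusted p under 0.05. The share of members called was thus 0.469% in each direction, beside 3.78% of all tested probe sets called higher and 1.77% called lower. No member passed after Benjamini-Hochberg adjustment over all 28151 probe sets, for which the smallest adjusted p of a member was 0.753 by limma. An exact permutation test of each probe set, 2-sided over the 924 ways to choose 6 of 12 arrays, called 6 members higher and 0 lower. Over all 28151 probe sets, the exact permutation test called 1121 higher and 572 lower. The count of higher members depended on the settings. It was 40 when limma weighted arrays by quality, where 2694 of all probe sets were called higher, against 1065 in the reported analysis. Without H2be-KO replicate 4 it was 20, where 2235 of all probe sets were called higher. In both settings the share of members called higher was above that of all probe sets, the reverse of the reported analysis. After quantile normalization the count of higher members was 0, and the calls over all probe sets changed from 1065 higher and 498 lower to 828 higher and 899 lower.

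Small differences in 1 direction were common among the members. The H2be-KO mean was above the WT mean for 172 of 213 members (80.8%), compared with 56.2% of all tested probe sets. Among other probe sets of high signal this share was also higher. It was 67.1% between log2 signals of 10 and 11 (72.7% of members), 72.7% between 11 and 12 (88.0% of members) and 65.8% above 12 (78.6% of members). At lower signal the gap was wider in part, with 64.2% between 9 and 10 (77.8% of 27 members) and 52.7% between 7 and 9 (88.9% of 9 members). The median difference over the members was 0.0705, a fold change of a few percent, and over all tested probe sets it was 0.0231. The median standard error of a single member was 0.0862 and the median half-width of its 95% confidence interval was 0.184. These counts are not independent, since arrays that read high did so for many members together.

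**Figure D1:**
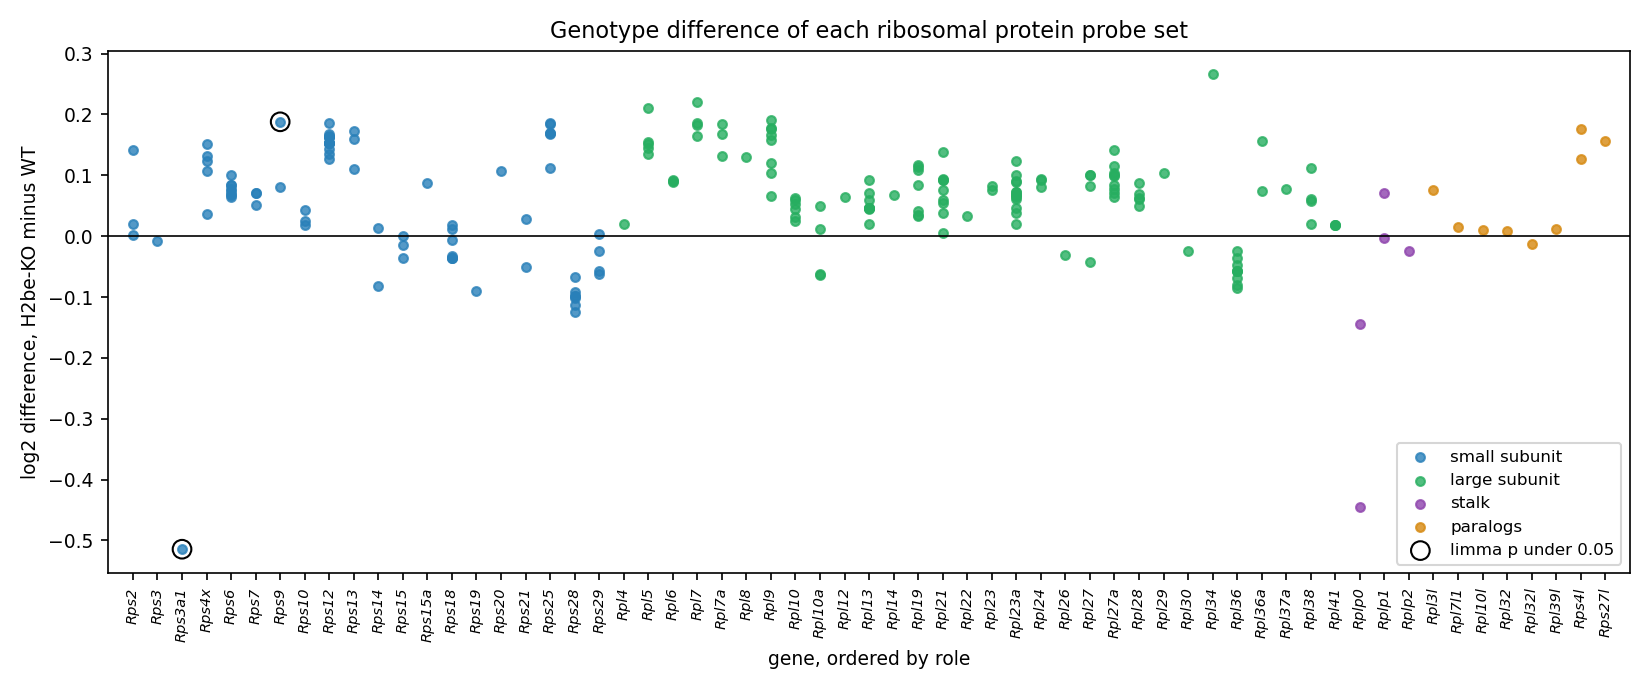
Log2 difference between H2be-KO and WT means (6 arrays each) for each of the 213 probe sets, with genes in order of role on the horizontal axis, probe sets as points and calls ringed. Most points lie between 0 and 0.2, while the Rps3a1 probe set and 1 Rplp0 probe set lie at -0.514 and -0.445.

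In the single arrays, the member signal varied as much within a genotype as between genotypes. For each array, the deviation of every member from its own mean over 12 arrays was taken, and the median of these was -0.0444, 0.000673, 0.121, -0.0631, 0.0425 and 0.108 in H2be-KO replicates 1 to 6. In WT replicates 1 to 6 it was -0.0334, -0.136, 0.0397, -0.0770, -0.118 and 0.108. The highest arrays were H2be-KO replicates 3 and 6 and WT replicate 6, the lowest were WT replicates 2 and 5, and the genotypes overlapped over most of their range. The group means were 0.0276 ± 0.0771 (SD, n = 6) for H2be-KO and -0.0361 ± 0.0947 (SD, n = 6) for WT. The median difference over the members ranged from 0.0443 to 0.104 when arrays were left out in turn, with the lowest value without WT replicate 2 and the highest without WT replicate 6.

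**Figure D2:**
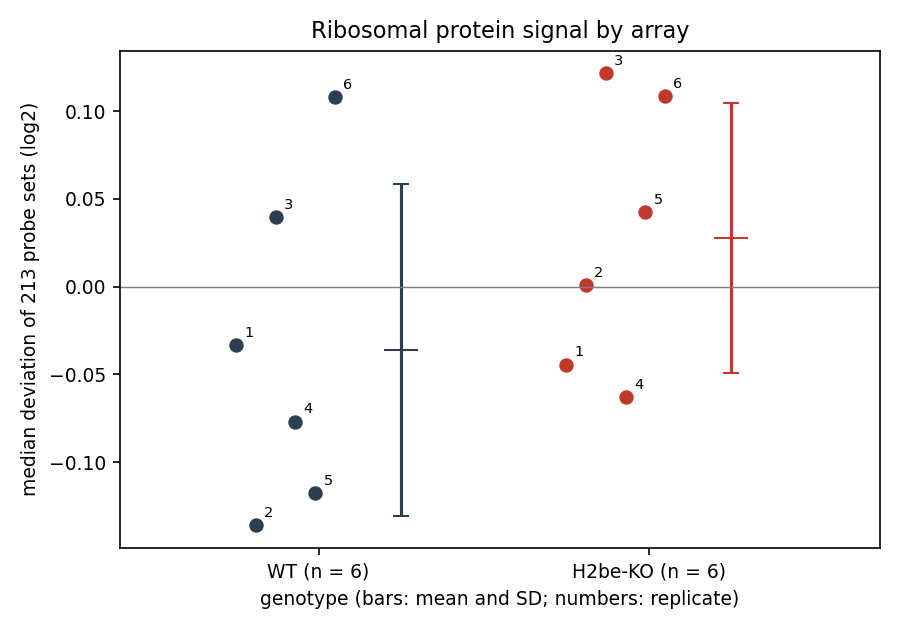
Median log2 deviation of the 213 member probe sets from their own means, 1 point per array (numbers are replicates), with group mean and SD as bars. WT replicate 6, at 0.108, reads as high as H2be-KO replicate 6, and H2be-KO replicates 1 and 4 lie under 0.

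The other probe sets of the same signal level also read slightly higher in H2be-KO MOE. Between log2 signals of 10 and 11, the median difference was 0.0779 over 77 members and 0.0523 over the 1976 other probe sets. Between 11 and 12 it was 0.0657 over 83 members and 0.0499 over 752 others, and above 12 it was 0.0381 over 14 members and 0.0327 over 237 others. At lower signal the values lay further apart, with 0.104 over 27 members and 0.0529 over 4380 others between 9 and 10, and 0.127 over 9 members and 0.0109 over 12693 others between 7 and 9. Between 5 and 7 there were only 3 members (median 0.0637, others 0.00890). The share of other probe sets called higher was lower in brighter bands, from 3.71% between 7 and 9 to 1.86% between 11 and 12 and 0.422% above 12. The shares called lower in these bands were 1.71%, 0.266% and 0%.

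**Figure D3:**
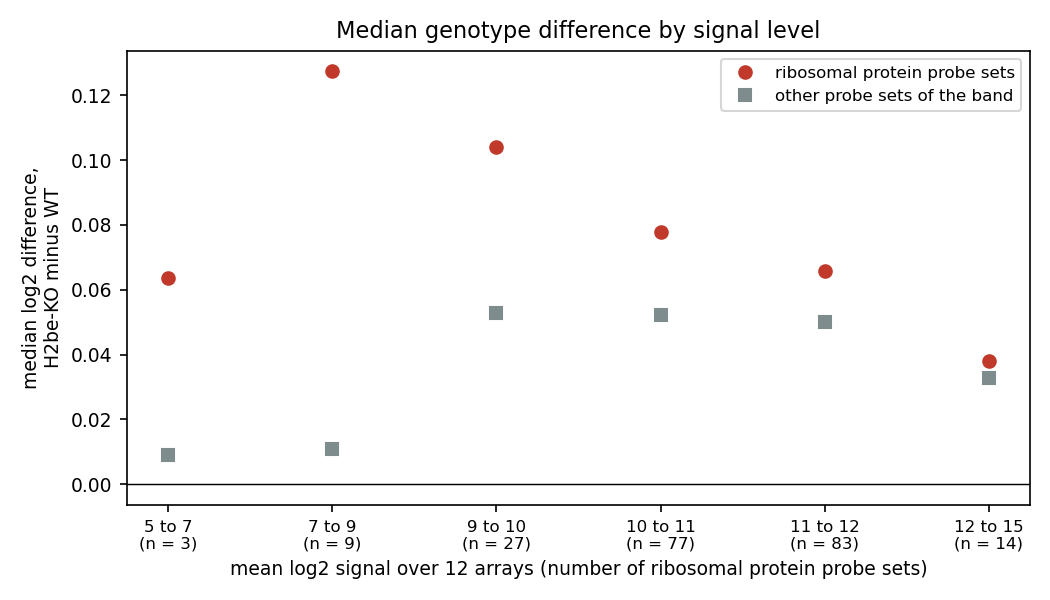
Median log2 difference between H2be-KO and WT in bands of mean log2 signal, for member probe sets (circles, number given under each band) and all other tested probe sets of the band (squares). Both series are above 0 in every band, and they come closest, at 0.0381 and 0.0327, above a signal of 12.

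Among the 77 probe sets for 20 small subunit genes, 55 had a higher mean in H2be-KO, and the median difference was 0.0716. Rps3a1, which encodes a small subunit protein, had the lowest difference of all members. Its signal in H2be-KO replicates 1 to 6 was 9.12, 9.19, 9.36, 9.07, 9.43 and 9.36. In WT replicates 1 to 6 it was 10.02, 10.42, 9.22, 9.03, 9.91 and 10.02. All H2be-KO arrays were low, and the WT arrays split, with replicates 3 and 4 at the H2be-KO level and the other 4 clearly above it. The difference was -0.514 with a standard error of 0.195 and a 95% interval from -0.931 to -0.0980, a fall to 0.700 of the WT signal (limma p = 0.0189, adjusted p = 0.753, exact permutation p = 0.0519).

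The other called member was a probe set of Rps9, which encodes a small subunit protein that affects the accuracy of decoding. Its signal ran from 10.62 to 10.82 in H2be-KO, with a median of 10.74, and from 10.32 to 10.72 in WT, with a median of 10.60. In 3 H2be-KO arrays the signal exceeded that of every WT array, and the lowest WT arrays were replicates 2 and 3. The difference was 0.188 with a standard error of 0.0851 (limma p = 0.0434, adjusted p = 0.753, exact permutation p = 0.0195). The second Rps9 probe set differed by 0.0813 with a standard error of 0.0728 (limma p = 0.282, exact permutation p = 0.126), and its values overlapped, from 10.31 to 10.55 in H2be-KO and from 10.24 to 10.43 in WT. The Rps9 call was lost when any 1 of 8 arrays was left out (H2be-KO replicates 2, 3, 5 and 6 and WT replicates 1, 2, 3 and 5), with p up to 0.113 without WT replicate 2.

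Rps6, the substrate of the S6 kinases downstream of mTORC1, had 8 probe sets with differences from 0.0640 to 0.101, none with a limma p under 0.291. The Rps6 probe set with the highest signal ran from 11.66 to 12.09 in H2be-KO, with a median of 11.90, and from 11.62 to 11.97 in WT, with a median of 11.79. The ranges overlapped, with 2 H2be-KO arrays above all WT arrays. Rps3, which sits at the mRNA entry site and also acts in DNA repair, differed by -0.00741 ± 0.0771 (SE, n = 6 per group). Rps19, the gene most often mutated in Diamond-Blackfan anemia, differed by -0.0906 ± 0.0776 (SE) and Rps14, the small subunit gene of the 5q- syndrome, by 0.0135 and -0.0824 in its 2 probe sets.

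Some small subunit genes had many probe sets that all pointed the same way. Rps12, which acts in cell competition in Drosophila, had 14 probe sets but only 8 distinct rows of values. All had a higher H2be-KO mean, with differences from 0.127 to 0.186. The probe set numbered beside the Rps12 gene had the smallest difference, 0.127. The Rps12 probe set with the smallest p ran from 9.61 to 10.11 in H2be-KO, with a median of 9.75, and from 9.51 to 9.70 in WT, with a median of 9.63. In 4 H2be-KO arrays the signal lay above all WT arrays, and the difference was 0.186 with a standard error of 0.0923 (limma p = 0.0619, exact permutation p = 0.0390). Rps28, in contrast, had 7 probe sets (6 distinct rows), all with a lower H2be-KO mean, from -0.124 to -0.0663, none with a limma p under 0.180. The Rps28 probe set with the smallest p ran from 9.83 to 10.03 in H2be-KO and from 9.91 to 10.38 in WT, where replicate 4 was the highest. The 6 probe sets of Rps25 differed by 0.113 to 0.187 and the 7 of Rps18 by -0.0359 to 0.0187.

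Among the 122 probe sets for 30 large subunit genes, 108 had a higher mean in H2be-KO, the median difference was 0.0714, and no probe set was called by limma. Rpl7a and Rpl7 had the smallest p values in this subunit, followed by Rpl34 and Rpl5. The Rpl7 probe set with the smallest p ran from 9.58 to 10.20 in H2be-KO, with a median of 9.99, and from 9.54 to 9.86 in WT, with a median of 9.72. H2be-KO replicates 2, 3, 5 and 6 lay above all WT arrays, while replicates 1 and 4 lay within the WT range, and the difference was 0.221 with a standard error of 0.113 (limma p = 0.0707, exact permutation p = 0.0844). The 4 probe sets of Rpl7 differed by 0.165 to 0.221. The Rpl7a probe set with the smallest p ran from 10.10 to 10.54 in H2be-KO, with a median of 10.32, and from 9.99 to 10.23 in WT, with a median of 10.12 (difference 0.184 ± 0.0912 SE, limma p = 0.0624, exact permutation p = 0.0563).

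Rpl5, which binds 5S rRNA and, when free, the p53 ligase Mdm2, had 5 probe sets with differences from 0.136 to 0.211. The largest of these ran from 10.52 to 11.14 in H2be-KO, with a median of 10.91, and from 10.40 to 10.93 in WT, with a median of 10.71 (standard error 0.124, limma p = 0.108, exact permutation p = 0.139). H2be-KO replicates 3, 5 and 6 lay above all WT arrays in this probe set. Rpl11, the partner of Rpl5, had no probe set named by ribosomal protein symbols alone. Rpl38, through which translation of Hox mRNAs is controlled in mouse embryos, had 4 probe sets with differences from 0.0201 to 0.113. Rpl4, which lines the peptide exit tunnel, differed by 0.0205 ± 0.0766 (SE).

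Rpl10, which joins the large subunit late in its assembly, had 6 probe sets with mean signals from 12.38 to 13.07, among them the 3 brightest member probe sets. Their differences were small, from 0.0244 to 0.0635, with limma p from 0.373 upward. The brightest ran from 13.00 to 13.15 in H2be-KO and from 12.95 to 13.16 in WT, so the ranges coincided. Signals of different probe sets also depend on their probes, and their order is not an order of mRNA amounts. Rpl36 was the large subunit gene whose 9 probe sets all had a lower H2be-KO mean, from -0.0853 to -0.0250, none with a limma p under 0.272.

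Rpl34, singled out after its values were seen, had the highest difference of all members. Its signal was 9.79, 9.86, 9.93, 9.94, 9.88 and 10.01 in H2be-KO replicates 1 to 6 and 9.60, 8.88, 9.94, 9.92, 9.61 and 9.89 in WT replicates 1 to 6. The H2be-KO arrays were tightly grouped, and WT replicate 2 lay far under all others. The difference was 0.266 with a standard error of 0.151 (limma p = 0.0987, exact permutation p = 0.110). In 4 further probe sets that list Rpl34 beside other symbols, and are thus not members, the difference had the other sign, from -0.140 to -0.112, with limma p from 0.228 upward.

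The stalk genes were the group in which most differences were negative, in 4 of 5 probe sets, with a median of -0.0236 and no call. Rplp0, the protein that anchors the stalk, had the widest within-genotype spread of all members. In 1 of its 2 probe sets the H2be-KO signals were 11.29, 10.48, 11.63, 11.97, 10.67 and 11.99, and the WT signals were 11.86, 11.28, 12.02, 11.88, 11.73 and 11.92. H2be-KO replicates 2 and 5 lay below every WT array, and the other 4 lay within the WT range. The difference was -0.445 with a standard error of 0.242 (limma p = 0.0863, exact permutation p = 0.171). The other Rplp0 probe set, numbered beside the gene itself, ran from 11.39 to 11.93 in H2be-KO and from 11.37 to 11.998 in WT, with a difference of -0.144 ± 0.126 (SE, limma p = 0.271, exact permutation p = 0.307). In 2 further probe sets that list Rplp0 beside Gm5779, and are thus not members, the difference was also negative. It was -0.210 (limma p = 0.139, exact permutation p = 0.180) and -0.200 (limma p = 0.164, exact permutation p = 0.201).

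Rplp1 and Rplp2 encode the mobile stalk proteins that contact elongation factors. The Rplp1 probe sets differed by 0.0705 ± 0.144 (SE) and -0.00251 ± 0.0952 (SE). Rplp2 differed by -0.0236 ± 0.0664 (SE), with signals from 9.13 to 9.28 in H2be-KO and from 9.19 to 9.32 in WT. In these 3 probe sets the ranges of the genotypes overlapped, and 1 or 2 H2be-KO arrays lay below all WT arrays.

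**Figure D4:**
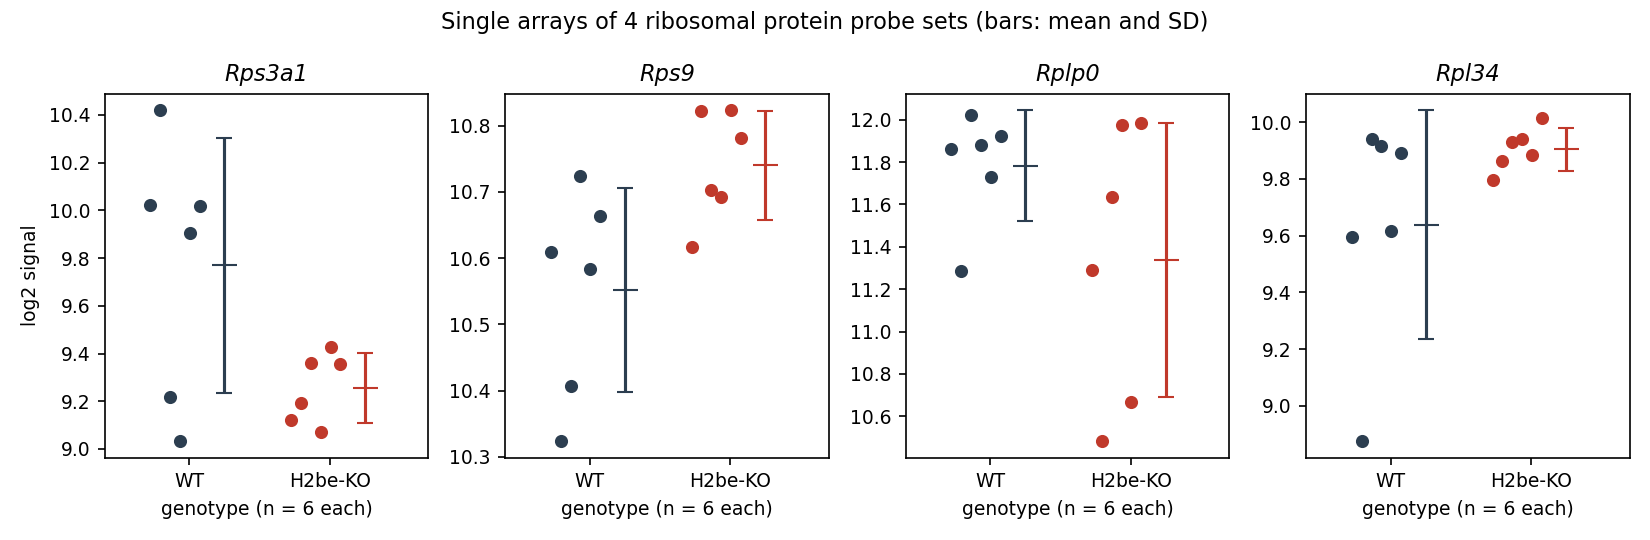
Log2 signal in each array (points) with group mean and SD (bars) for the Rps3a1 and Rps9 probe sets that were called and for the Rplp0 and Rpl34 probe sets with wide spread. The 4 higher WT arrays of Rps3a1 lie between 9.91 and 10.42 while 2 WT arrays lie among the H2be-KO arrays, and in Rplp0 the spread lies in H2be-KO, where 2 arrays are at 10.48 and 10.67.

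The 9 probe sets of paralogs had a median difference of 0.0154, with a higher H2be-KO mean in 8 and no call. Rpl3l, the muscle paralog of Rpl3, was the dimmest member, with a mean signal of 5.69, and its values ran from 5.44 to 6.08 in H2be-KO and from 4.80 to 6.08 in WT (difference 0.0757 ± 0.181 SE). Rpl39l and Rpl10l, which are most active in the testis, differed by 0.0113 ± 0.140 (SE) and 0.0104 ± 0.0724 (SE). Rps27l, a p53-responsive paralog of Rps27, ran from 8.59 to 9.002 in H2be-KO, with a median of 8.76, and from 8.37 to 8.83 in WT, with a median of 8.66 (difference 0.157 ± 0.101 SE, limma p = 0.141, exact permutation p = 0.145). Rpl7l1, a large subunit assembly factor, differed by 0.0154 ± 0.0752 (SE), beside 0.165 to 0.221 for its relative Rpl7, and Rpl22l1 had no probe set of its own symbol alone.

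Of the 61 gene symbols, 38 had several probe sets, of which 27 had only positive differences, 3 only negative ones and 8 both. Counting probe sets therefore counts some genes up to 14 times. In addition, 23 member probe sets in 9 groups held the same values as another member in all 12 arrays, which left 199 distinct rows with a median difference of 0.0685. Probe set numbers on this platform mostly follow the genome, and 97.5% of other probe sets with 1 symbol lay beside probe sets of their own gene's region. This held for only 54 of 211 member probe sets that could be placed (25.6%), while 157 were numbered elsewhere. Ribosomal protein genes have many processed pseudogenes whose sequences are nearly those of the parent mRNA, so a probe set can detect transcripts of several copies. Over the 54 members numbered beside their own gene, the median difference was 0.0546, 39 were positive and none was called. The called Rps9 and Rps3a1 probe sets and the more variable Rplp0 probe set were all numbered elsewhere.

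Probe sets of the same gene were alike across arrays in most genes but not in all. In the 37 genes with several distinct probe sets, the median over genes of the within-gene Pearson correlation was 0.901 across the 12 arrays, which share their normalization and RNA. It was 0.977 for Rps12, 0.944 for Rps28 and 0.941 for Rpl36, and 0.421 for the 2 probe sets of Rps9. It was lower still for Rpl23 (0.382) and Rps14 (0.236) and negative for Rpl27 (-0.136) and Rps21 (-0.307). The correlation of a member with the median member deviation of the arrays had a median of 0.783, and 31 of 213 members had a negative value. The median over the probe sets of a gene was below 0 for 10 genes. It was -0.621 for Rps28, -0.618 for the dim Rpl3l, -0.432 for Rps29, -0.291 for Rplp1 and -0.196 for Rpl36. None was tested, and those of Rplp1 and Rpl36 were small. These values include the genotype difference of each member.

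After these values were seen, the named probe sets most like the 5 members of widest spread and the called members were sought by Pearson correlation across the 12 arrays, without probe sets of the same symbol. For Rps3a1, 5 of the 10 most alike belong to genes on chromosome 3, where Rps3a1 and H2be itself lie and which holds 4.75% of the 21353 placed probe sets. The 3 most alike were all from that chromosome: She (r = 0.858), the lactate transporter gene Slc16a1 (r = 0.848) and the histone H2B gene H2bc18 (r = 0.841). H2bc18 had a difference of -0.521 (limma p = 0.0127, exact permutation p = 0.0303), She one of -0.267 (limma p = 0.0248, exact permutation p = 0.0368) and Slc16a1 one of -0.365 (limma p = 0.130, exact permutation p = 0.210). The correlations include the genotype difference, so probe sets picked as most like a called member tend to differ the same way. Their p-values are therefore no separate evidence of a genotype difference. Both probe sets annotated to Rps3a1 and Tapbp together, which the rule left out, followed the member with r = 0.984 and r = 0.977. Their differences were -0.508 ± 0.161 (SE, limma p = 0.00663, exact permutation p = 0.0433) and -0.391 ± 0.126 (SE, limma p = 0.00744, exact permutation p = 0.0281), each with an adjusted p of 0.753.

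The same was found for the variable Rplp0 probe set, which is numbered on chromosome 16 although RefSeq places Rplp0 on chromosome 5. Of its 10 most similar probe sets, 5 belong to chromosome 5, which holds 6.03% of placed probe sets. They were 3 probe sets of Pebp1 (r = 0.967 to 0.974), 1500011B03Rik (r = 0.953) and Hspb8 (r = 0.918). For Rpl34, on chromosome 3, the count was 4 of 10, with Cers2 (r = 0.877), Pla2g12a (r = 0.871), Alg14 (r = 0.861) and Them5 (r = 0.854). Over all 212 members with 1 symbol, the median count on the chromosome of the gene was 0 of 10, and only these 3 members reached 4 or more. These correlations describe 12 arrays and were not tested.

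**Figure D5:**
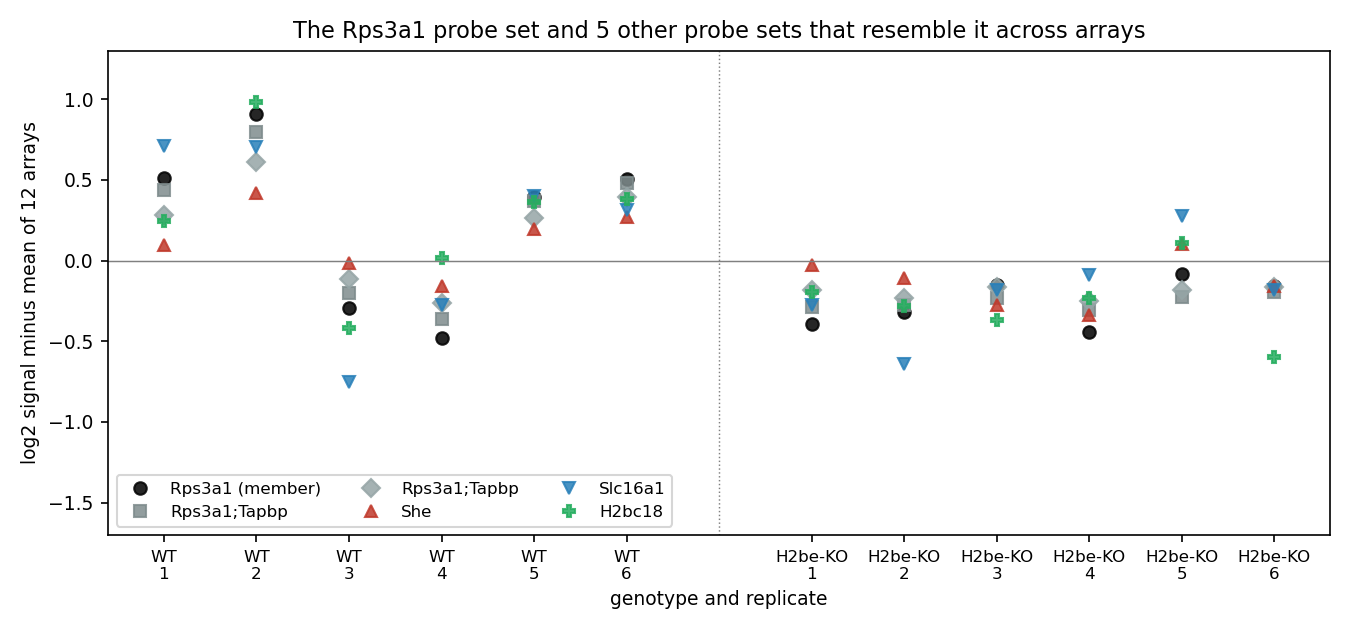
Log2 signal minus the mean over 12 arrays for the Rps3a1 member, the 2 probe sets annotated to Rps3a1 and Tapbp, and the probe sets of She, Slc16a1 and H2bc18, by genotype and replicate. WT replicates 1, 2, 5 and 6 lie above 0 for all 6 probe sets, and WT replicate 3 lies under 0 with most H2be-KO arrays.

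Other genes of protein synthesis were compared from lists, with limma calls at an unadjusted p under 0.05 and none passing adjustment (smallest adjusted p 0.753). Of 85 probe sets for mitochondrial ribosomal proteins, 8 were called higher (9.41%, beside 3.78% of all probe sets) and 1 lower (1.18%, beside 1.77%), with a median difference of 0.0831. With single arrays left out, the count called higher dropped to 4 (H2be-KO replicate 3 left out) or 5 (WT replicate 5) and grew to 15 (H2be-KO replicate 4) or 23 (WT replicate 6). Over all probe sets, the counts called higher in these settings were 589, 714, 2235 and 2265, against 1065 with all arrays. Mrpl3 differed by 0.260 ± 0.0940 (SE, limma p = 0.0146, exact permutation p = 0.0130) and 1 of 2 probe sets of Mrpl27 by 0.198 ± 0.0773 (SE, limma p = 0.0220, exact permutation p = 0.00649), both proteins of the mitochondrial large subunit, while 1 of 2 probe sets of Mrpl47 differed by -0.287 ± 0.119 (SE, limma p = 0.0297, exact permutation p = 0.0455). The second probe set had a difference of the other sign in both genes, -0.0214 ± 0.0901 (SE) for Mrpl27 and 0.181 ± 0.107 (SE) for Mrpl47, and neither was called. Of 80 probe sets for ribosome biogenesis, 1 was called higher, that of Ncl, the nucleolar protein nucleolin (0.216 ± 0.0893 SE, limma p = 0.0290, exact permutation p = 0.0195), and the median was 0.0751. Of 62 probe sets matched as initiation factors, 2 were called higher, with a median of 0.102. They were 1 of 3 probe sets of Eif4e, which binds the mRNA cap (0.160 ± 0.0744 SE, limma p = 0.0481, exact permutation p = 0.0108), and Eif2ak2, a kinase that inhibits initiation (0.297 ± 0.125 SE, limma p = 0.0309, exact permutation p = 0.0325). The other Eif4e probe sets differed by 0.0619 ± 0.125 (SE) and 0.130 ± 0.101 (SE).

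Of 19 probe sets for other TOP transcripts, none was called and the median was 0.0769. The medians were 0.0705 for the ribosomal proteins, 0.0751 for ribosome biogenesis and 0.0831 for mitochondrial ribosomal proteins. Thus this value was not particular to TOP transcripts. Probe sets outside the members had medians of 0.0523 between log2 signals of 10 and 11 and 0.0499 between 11 and 12. Of 13 matched as elongation factors, 1 was called higher, that of Eef1akmt1, a methyltransferase that modifies an elongation factor, and the median was -0.0137. None of 12 probe sets of the mTORC1 pathway was called, with a median of -0.0746 and a negative difference in 10. The 7 probe sets of Rpsa and Fau, ribosomal components whose names fall outside the rule, had a median of 0.0227 and no call. The further 236 probe sets that list a ribosomal protein symbol beside others had a median of 0.101. Of these, 2 were called higher and 2 lower, beside 3.78% and 1.77% of all probe sets. Both called higher list Rpl31 and Clpb, and both called lower are the Rps3a1 and Tapbp probe sets described above.

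As to the arrays themselves, correlations between pairs ran from 0.951 to 0.985 and medians from 7.84 to 7.90. The H2be probe set (H2bc21) had a mean signal of 11.65 in H2be-KO and 11.89 in WT (difference -0.237, exact permutation p = 0.0195), and which part of the transcript its probes cover is not given in the sources used here. All 6 probe sets of mature olfactory neuron markers (such as Omp) had signals between 11.1 and 12.9, a median difference of 0.0408 and no call. Of 5 probe sets for immature neurons, 1 was called higher, that of Gap43 (0.249 ± 0.106 SE, limma p = 0.0336, exact permutation p = 0.0455), whose tag is part of the reporter allele, and the median of the 5 was 0.169. The 3 probe sets of horizontal basal cell markers all had a lower H2be-KO mean, with a median of -0.132 and no call. Of 2 probe sets for progenitors, 1 was higher and 1 lower, and neither was called. The enamel gene Amelx was at 11.87 and 11.66 in H2be-KO replicates 1 and 6 and between 5.11 and 6.03 in the other 10 arrays. Without those 2 arrays the median difference over the members was 0.0639, with 1 member called higher and 2 lower. The part of cell composition in the differences was not tested.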

How the data were processed

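Whole MOE RNA was measured on Mouse Gene 1.0 ST arrays (Affymetrix). The authors screened the arrays for outliers, summarized probes with IterPLIER and applied sketch-quantile normalization in Affymetrix Expression Console (no versions given in the sources used here). Each deposited value is the log2 signal of 1 probe set on 1 array, and a change shared by most transcripts would have been removed before deposition. The table held 35556 rows, of which 6612 were control rows and not used here.

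Gene symbols came from the platform annotation, and promoters and chromosomes from RefSeq. Of 28944 experimental probe sets, 21789 had 1 symbol, 1621 had several and 5534 had none. Groups were taken from the sample titles. Those averaging over 5 on the log2 scale were tested with limma 3.58.1 in R 4.3.3 (lmFit and eBayes, genotype as the only factor), with Benjamini-Hochberg adjustment over all 28151, and a call was an unadjusted p under 0.05. Exact permutation tests were 2-sided, and the smallest p they can give is 0.00216. A probe set was placed beside its gene when at least 6 of its 10 nearest numbered neighbors lay on 1 chromosome and the gene lay within 1 Mb of them. The limma step was checked on simulated data. Array data hold no counts, and the number of arrays (12) limits the precision. Samples are separate pools of 2 animals, and p-values measure the spread between them.

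Members and lists were chosen with earlier results of these data known. Named probe sets were the called members, the 5 higher and 5 lower with the smallest p, the 3 brightest, 3 dimmest and 3 most variable, paralogs, stalk genes and a list of well-known genes. Of other lists, at most 2 higher and 2 lower were named. Families with many probe sets pointing 1 way, Rpl34 and the second Rps9 probe set were added after their values were seen. Alternatives changed the filter, normalization, test, covariates, averaging and arrays used. Replicate numbers were not taken as pairs, since the labels do not say what they mark.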

Additional observations from a re-analysis of the deposited data

Results flagged for a closer look

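Among the 100 groups of 6 arrays formed by the named probe sets, 5 held 1 array that stood far from the others, by Dixon's gap test at the 95% level, and chance alone flags about 1 group in 20. All 5 were in WT. WT replicate 4 read high for 2 probe sets of Rps28, at 10.98 (next highest 10.69) and 10.996 (next highest 10.70), and for a probe set of Rplp1, at 10.99 (next highest 10.46). For this Rplp1 probe set, H2be-KO replicate 4 was also the highest H2be-KO array, at 10.89. For the 2 Rps28 probe sets, H2be-KO replicate 1 was the highest H2be-KO array. WT replicate 2 read low for Rpl34, at 8.88 (next lowest 9.60). WT replicate 6 read low for the dim Rpl3l probe set, at 4.80 (next lowest 5.61).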

How the results depend on the processing

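The count of members called higher was 1 in the reported analysis. It was 0 after quantile normalization, after median centring and after averaging by gene symbol (61 genes), 6 with a trended and robust prior and 6 with the exact permutation test, 15 with the first residual component as covariate and 40 with array weights. Among the 54 members beside their own gene, chosen after seeing the data, 0 were called higher and 0 lower. The count called lower, also 1, was 0 with the exact permutation test and 2 without both H2be-KO arrays of high Amelx signal, another choice made after seeing the data. With the replicate number as a block, 3 members were called higher and 2 lower. The labels do not pair the replicates. The correlation of deviations between same-numbered arrays was positive throughout, at 0.0896, 0.592, 0.393, 0.319, 0.0251 and 0.377 for replicates 1 to 6. Arrays of different numbers were not compared in this way, and whether the numbers mark a shared batch was not tested. Leaving out single arrays gave 0 to 20 members called higher, 1 to 2 called lower and a median difference from 0.0443 to 0.104. The counts were highest without H2be-KO replicate 4 (20), WT replicate 6 (9) and H2be-KO replicate 1 (5). Over all probe sets, the counts called higher without these arrays were 2235, 2265 and 1142. The causes of these changes were not tested.

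The median difference over the members was positive under all alternatives run, and lowest after quantile normalization, at 0.0264, where the median over all probe sets was -0.000574. Over all probe sets, 1065 were called higher and 498 lower, against 2039 and 951 with the replicate block, 2694 and 1405 with array weights and 2042 and 1214 with the residual component. Quantile normalization gave 899 lower, averaging by symbol gave 667 higher, and leaving out single arrays gave 513 to 2265 higher and 313 to 1552 lower. The exact permutation test gave 1121 higher and 572 lower, and the trended and robust prior gave 1206 and 443. Of 1147 values of named members under alternatives, none changed sign past the threshold, 14 lost a call, 13 of them for Rps9, and 37 gained one. Without single arrays, limma called Rplp0 (without H2be-KO replicate 4 or 6 or WT replicate 2), Rpl5 (H2be-KO replicate 4 or WT replicate 6), Rps12 (H2be-KO replicate 1 or 4), and Rpl7 and Rpl7a (H2be-KO replicate 1 or 4 or WT replicate 6). The Rps3a1 call was lost only with the exact permutation test. With 6 arrays per group, differences near the median member's size lie within the error of a single probe set.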
